A study of Mus musculus with 5 samples.

Results

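The erythropoietin receptor gene Epor and 9 genes that signal with it or answer to it were examined in mouse neural tubes that lacked the receptor and in littermate controls. These 10 genes, of 23284 in the count tables, were Epor, Csf2rb, Jak2, Stat5a, Stat5b, Cish, Socs2, Socs3, Cbl and Pim1. They were taken by symbol as the receptor, its signalling chain and its feedback genes, and they were picked with read counts and EpoR-null against control differences of these libraries in view, the large difference of Cbl among them. Their levels and fold changes are therefore given as a description, with no p-value for any of the 10. Which of them passed the thresholds of the fit over all genes is counted for the same purpose only.

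Erythropoietin binds a receptor dimer at the cell surface, and the kinase JAK2 held on that receptor phosphorylates it and the transcription factors STAT5A and STAT5B. The STAT5 proteins then enter the nucleus and switch on target genes, among them Cish, the SOCS genes and Pim1, and the CIS and SOCS proteins act back on the receptor and its kinase. The pathway is best known for keeping red cell precursors alive, and the receptor is also made in the early nervous system.

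RNA was measured in 5 libraries of polyadenylated RNA from neural tubes, which the labels place at embryonic day 8.5 and the study's methods slightly later. The groups were 2 EpoR -/- libraries (EpoR-null), 2 EpoR +/+ libraries (wild type) and 1 EpoR +/- library (the heterozygote), and the wild type and heterozygote libraries together were the littermate controls. All embryos came from crosses of EpoR +/- mice, the functional allele was absent from the whole EpoR-null embryo, and no treatment is given. Titles in the deposit call the gene Epo, whereas the genotype labels name EpoR. The receptor is missing throughout the embryo, the blood included, so a difference cannot be tied to the neural cells alone. Strain, the part of Epor that is removed and whether a library pooled embryos are not given in the sources used here.

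Reads counted on genes ranged from 19316126 to 41169218 per library, and levels are given as CPM, counts relative to library size, scaled here with the trimmed mean of M-values (TMM). On this scale 3 reads stood for 0.0714 to 0.151 CPM. All 15 neural tube markers, such as Sox2, Pax6 and Nes, had reads in every library, and their summed level was 1840 to 2350 CPM. The heterozygote library stood apart in the markers of other cells. Its primitive erythroid markers summed to 47.0 CPM, against 629 to 1730 CPM in the other 4 libraries. Its endothelial markers summed to 15.7 CPM, against 197 to 386 CPM. It was the lowest library for 12 of 12 endothelial markers and for 11 of 15 erythroid markers. The 4 adult globin genes of the erythroid list (Hba-a1, Hba-a2, Hbb-b1 and Hbb-b2) were listed at 0 in all 5 libraries. The counter left out reads that fit several places, so these 0 values do not show that the genes were silent. In bulk RNA, fewer cells of a type and less RNA per cell cannot be told apart. Values that rest on the heterozygote library are therefore given with and without it.

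Epor, the targeted gene, encodes the receptor itself. It lies on chromosome 9 of GRCm38 at chr9:21958897-21963506 on the minus strand. The 280 bases around its RefSeq start (GRCm38.p6, chr9:21963547-21963826, minus strand, 250 bases before the start and 30 from it) are shown because the proximal promoter of this gene is a textbook example of control by GATA and SP1 factors. The capitals mark the GATA motif (GATAA or its reverse complement) at -54 to -50 and the GC box (GGGCGG or its reverse complement) at -26 to -21, counted with the annotated start as +1.
Epor: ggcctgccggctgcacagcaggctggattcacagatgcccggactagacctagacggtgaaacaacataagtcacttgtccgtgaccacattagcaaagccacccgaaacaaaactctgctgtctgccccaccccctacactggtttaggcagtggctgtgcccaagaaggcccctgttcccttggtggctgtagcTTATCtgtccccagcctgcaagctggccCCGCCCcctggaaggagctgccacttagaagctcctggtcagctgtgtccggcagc
Searched on both strands in windows of 250 bases before to 50 after the start, the GATA motif was held by 25.41% of 32851 RefSeq promoters and the GC box by 35.66%. A match is a run of letters and not evidence of binding.

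Epor was counted at 57 and 68 reads in the wild type libraries, 11 in the heterozygote, and 7 and 19 in EpoR-null. On the CPM scale this was 2.35 and 1.62 in wild type, 0.475 in the heterozygote, and 0.353 and 0.668 in EpoR-null. Both EpoR-null libraries lay below both wild type libraries, and the heterozygote lay between the EpoR-null libraries. Exact Poisson 95% intervals, which cover counting error only, ran from 1.26 to 3.05 CPM over the wild type libraries and from 0.142 to 1.04 CPM over the EpoR-null libraries. That of the heterozygote, 0.237 to 0.85 CPM, fell within the latter. The library labelled EpoR +/- was thus not set apart from the EpoR-null libraries by its Epor level.

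The log2 fold change of Epor was -1.51 (SE 0.76) against all 3 controls and -1.91 (SE 0.58) against wild type alone, where the level was 3.76-fold lower. Reads from any remaining part of the gene count in full, since each count covers the whole gene. Set against the erythroid markers of the same library, Epor stood at 2.08 and 2.57 CPM per 1000 erythroid marker CPM in wild type and at 0.204 and 0.679 in EpoR-null. The heterozygote stood at 10.1, above every other library on this scale. Per 1000 CPM of endothelial markers the gap was smaller, at 9.75 and 4.20 CPM in wild type, 30.3 in the heterozygote, and 1.04 and 3.40 in EpoR-null. The part of the low erythroid and endothelial content in the heterozygote's Epor level was not tested.

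Csf2rb encodes the common beta chain shared by the receptors for IL-3, IL-5 and GM-CSF, and it has been described as a partner of the erythropoietin receptor in nervous tissue. It lies at chr15:78325752-78353847 on the plus strand (GRCm38). It was counted at 82 and 100 reads in wild type, 3 in the heterozygote and 9 and 10 in EpoR-null, or 3.38 and 2.38, 0.130, and 0.454 and 0.352 CPM. The heterozygote was the lowest library, with an exact Poisson 95% interval of 0.0267 to 0.379 CPM, and the EpoR-null libraries lay between it and wild type. The log2 fold change was -2.28 (SE 1.11) against all 3 controls and -2.84 (SE 0.57) against wild type alone, a 7.14-fold lower level.

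Csf2rb2, a near-identical neighbouring copy, had 10 and 23 reads in wild type, 2 in the heterozygote, and 1 and 0 in EpoR-null. The 0 reads of EpoR-null replicate 2 allow up to 0.106 CPM by a limit of 3 reads. The counter left out reads that fit more than 1 place, so the levels of this pair are uncertain and could be split between them. Csf2rb is also made by blood cells and endothelium. Per 1000 CPM of endothelial markers, Csf2rb stood at 14.0 and 6.17 CPM in wild type, 8.26 in the heterozygote, and 1.34 and 1.79 in EpoR-null. The summed endothelial markers themselves were 241 and 386 CPM in wild type and 339 and 197 CPM in EpoR-null. On that scale the heterozygote lay among the wild type libraries and both EpoR-null libraries lay below all 3 controls. The same held per 1000 CPM of erythroid markers in that both EpoR-null libraries (0.262 and 0.357 CPM) lay below wild type (2.99 and 3.78) and the heterozygote (2.76). Per 1000 CPM of markers of myeloid and other blood cells, Csf2rb stood at 284 and 191 CPM in wild type, 17.5 in the heterozygote, and 20.0 and 26.5 in EpoR-null. In the heterozygote most of that list was 1 gene, Cd68, with 5.10 of 7.38 CPM. The part of cell content in the Csf2rb values was not tested.

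**Figure D1:**
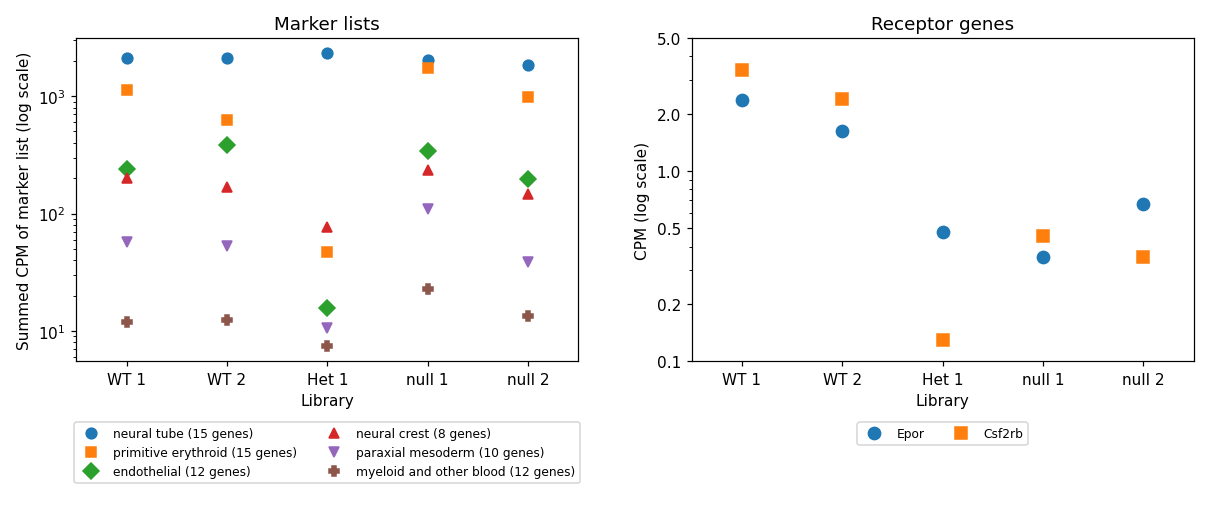
Left, summed CPM of 6 marker gene lists in each of the 5 libraries; right, CPM of Epor and Csf2rb in the same libraries, both on a log scale with 1 point per library. The heterozygote is lowest in every list but that of the neural tube, most so for the erythroid and endothelial lists (47.0 and 15.7 CPM). It is also low for both receptor genes, while its neural tube list is the highest at 2350 CPM.

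Epor and Csf2rb passed the filter for testing (a CPM above 1 in at least 2 libraries) only through the wild type libraries. Their being tested thus depended on the libraries where they were high, and no support is drawn from it. Before TMM scaling Stat5a was above 1 CPM in 3 libraries, and the other 7 genes were above it in all 5.

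Jak2, the kinase that carries the signal from the receptor, lies at chr19:29251828-29313080 on the plus strand. It stood at 26.4 and 22.7 CPM in wild type, 28.2 in the heterozygote, and 28.1 and 17.2 in EpoR-null. EpoR-null replicate 1 lay among the controls and replicate 2 below them, and the log2 fold change of -0.19 (SE 0.28) was smaller than its error.

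The STAT5 genes lie head to head on chromosome 11, Stat5b at chr11:100780731-100850724 on the minus strand and Stat5a at chr11:100859351-100885169 on the plus strand, 8.63 kb apart. Stat5b had 23.8 and 26.0 CPM in wild type, 25.5 in the heterozygote, and 22.6 and 16.6 in EpoR-null. Both EpoR-null libraries were below every control, though replicate 1 by little, and the log2 fold change was -0.35 (SE 0.23). It was -0.59 without EpoR-null replicate 1, -0.15 without replicate 2 and -0.16 with offsets that take out each library's trend on transcript length and GC content. Stat5a was a minor partner, with 0.990 and 0.9995 CPM in wild type, 0.475 in the heterozygote, and 2.02 and 0.879 in EpoR-null. The groups overlapped, and the log2 fold change of 0.79 (SE 0.59) rested on EpoR-null replicate 1, which was 2.30 times replicate 2. Without EpoR-null replicate 1 it was 0.08. Per kb of transcript, the wild type mean of Stat5b was 4.77 CPM and that of Stat5a 0.251 CPM. The genes are near copies of each other, and reads that fit both would have been left out of both.

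Cish encodes CIS, the SH2 protein that STAT5 induces and that docks on the receptor in turn. It lies at chr9:107296026-107302784 on the plus strand. It was the only member with both EpoR-null libraries above every control, which was so for 21.2% of all tested genes. It had 2.72 and 2.17 CPM in wild type, 2.38 in the heterozygote, and 3.99 and 3.59 in EpoR-null, which came from 55 to 102 reads per library. The control mean was 2.42 ± 0.282 CPM (SD, n = 3). The EpoR-null mean was 3.79 ± 0.281 CPM (SD, n = 2), a 1.57-fold higher level with a log2 fold change of 0.65 (SE 0.35). The log2 difference within replicate number 1 (EpoR-null minus wild type) was 0.54 and within number 2 it was 0.71. Across the alternative fits the fold change of Cish ran from 0.57 to 0.79.

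The start of Cish is shown with that of Socs3 because both held the letters of a STAT motif, TTCNNNGAA, which reads the same on both strands and is marked in capitals. The windows are GRCm38.p6, chr9:107296409-107296688 on the plus strand for Cish and chr11:117969337-117969616 on the minus strand for Socs3, again with 250 bases before the RefSeq start and 30 from it.
Cish: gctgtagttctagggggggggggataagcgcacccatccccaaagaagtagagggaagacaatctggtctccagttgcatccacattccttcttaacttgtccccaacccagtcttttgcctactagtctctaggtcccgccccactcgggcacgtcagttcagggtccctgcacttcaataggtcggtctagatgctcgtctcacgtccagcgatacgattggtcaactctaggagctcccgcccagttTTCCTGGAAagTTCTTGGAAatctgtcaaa
Socs3: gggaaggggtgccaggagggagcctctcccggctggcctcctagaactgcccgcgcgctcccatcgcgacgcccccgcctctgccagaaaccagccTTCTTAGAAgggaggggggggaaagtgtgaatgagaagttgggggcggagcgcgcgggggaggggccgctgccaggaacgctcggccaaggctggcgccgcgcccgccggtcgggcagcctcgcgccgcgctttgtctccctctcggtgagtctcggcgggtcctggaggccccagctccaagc
Cish held TTCCTGGAA at +1 to +9 and TTCTTGGAA at +12 to +20, and Socs3 held TTCTTAGAA at -154 to -146. The motif was present in 8.3% of the 32851 RefSeq promoter windows and at least 2 times in 0.457% of them. Promoter windows were matched for 8 of the 10 genes (not Csf2rb and Socs2), 11 windows in all, and none of the other 6 genes held this motif in them. These matches describe the sequence and do not show binding.

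Socs3, which encodes an inhibitor of cytokine receptors and JAK kinases, lies at chr11:117966079-117970047 on the minus strand. It did not differ by more than the spread between libraries, at 9.99 and 13.9 CPM in wild type, 12.4 in the heterozygote, and 7.11 and 14.5 in EpoR-null. The EpoR-null libraries were the lowest and the highest of the 5, and the log2 fold change was -0.16 (SE 0.40). Within replicate number 1 the log2 difference from wild type was -0.49 and within number 2 it was 0.06.

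Socs2, known as a brake on growth hormone signalling, lies at chr10:95385362-95417180 on the minus strand. Wild type libraries held 12.9 and 12.2 CPM, the heterozygote 16.0, and the EpoR-null libraries 12.97 and 16.9. The groups overlapped and the log2 fold change was 0.13 (SE 0.28). Of the 3 SOCS-box feedback genes in the set, Cish, Socs2 and Socs3, only Cish had groups that did not overlap. Among all tested genes, both EpoR-null libraries lay above every control for 21.2% and below every control for 22.1%. Nothing is therefore read from this count.

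Cbl encodes a ubiquitin ligase that tags activated receptors for degradation, and it lies at chr9:44142976-44234049 on the minus strand. Wild type libraries held 41.5 and 34.7 CPM, the heterozygote 41.0, and the EpoR-null libraries 12.8 and 4.04, from 1005, 1457, 950, 253 and 115 reads. Both EpoR-null libraries lay far below every control, and the heterozygote lay with wild type. The control mean was 39.1 ± 3.80 CPM (SD, n = 3) and the EpoR-null mean 8.40 ± 6.17 CPM (SD, n = 2). The level was 4.66-fold lower, a log2 fold change of -2.22 (SE 0.48), and EpoR-null replicate 1 was 3.16 times replicate 2.

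Cbl has the longest transcript of the 10 genes, at 11.37 kb, and transcript length moved with the difference between groups. In the shortest 10% of tested genes the median log2 CPM minus the control mean was 0.25 in EpoR-null replicate 1 and 0.56 in replicate 2. In the longest 10% it was -0.31 and -0.68, with 10th percentiles of -0.82 and -1.38. Cbl stood at -1.60 and -3.24, below those percentiles in both libraries. With the length and GC offsets, the log2 fold change of Cbl was -1.70. The part of transcript length in what remained was not tested.

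**Figure D2:**
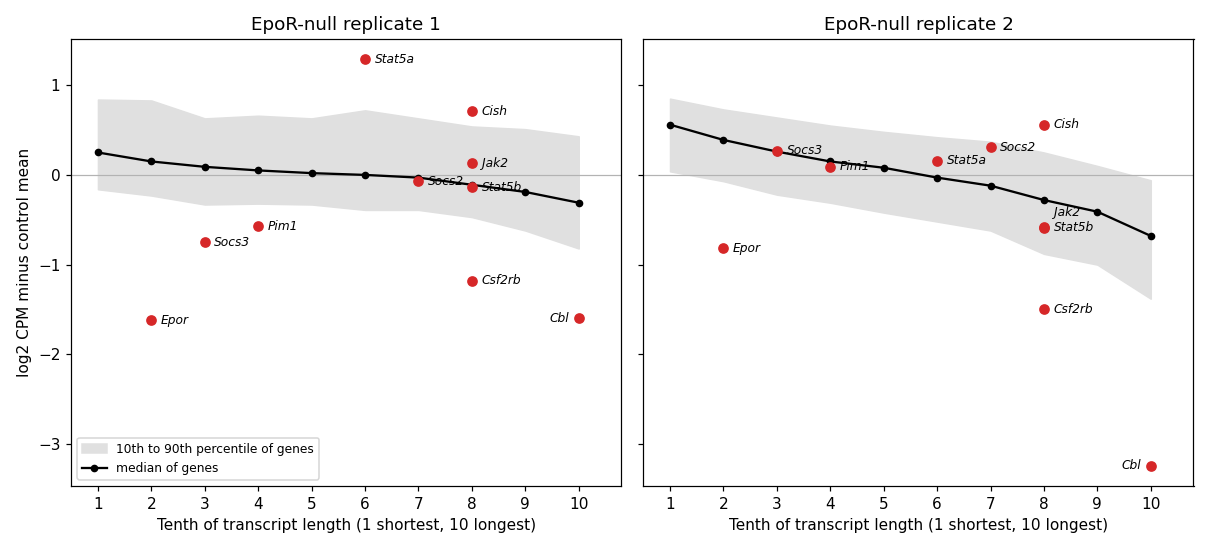
Log2 CPM minus the mean of the 3 controls for the 2 EpoR-null libraries, by transcript length in 10 equal bins of genes, with the median of tested genes as a line, their 10th to 90th percentile as a band and the 10 genes as red points. Cbl, in the longest bin, lies below the band in both libraries at -1.60 and -3.24, and Cish lies above it in both at 0.71 and 0.56.

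Epor and Cbl lie 22.2 Mb apart on chromosome 9. Of the 675 tested genes on that chromosome 33 passed both thresholds (4.89%), beside 553 of 11525 tested genes with a position (4.8%).

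Pim1, a survival kinase gene induced by STAT5, lies at chr17:29490753-29496112 on the plus strand. It was the most abundant of the set per length. It had 60.7 and 68.5 CPM in wild type, 59.3 in the heterozygote, and 42.1 and 66.8 in EpoR-null. EpoR-null replicate 1 was below every control and replicate 2 among them, and the log2 fold change was -0.21 (SE 0.24). Without EpoR-null replicate 2 it was -0.58, and without replicate 1 it was 0.09.

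**Figure D3:**
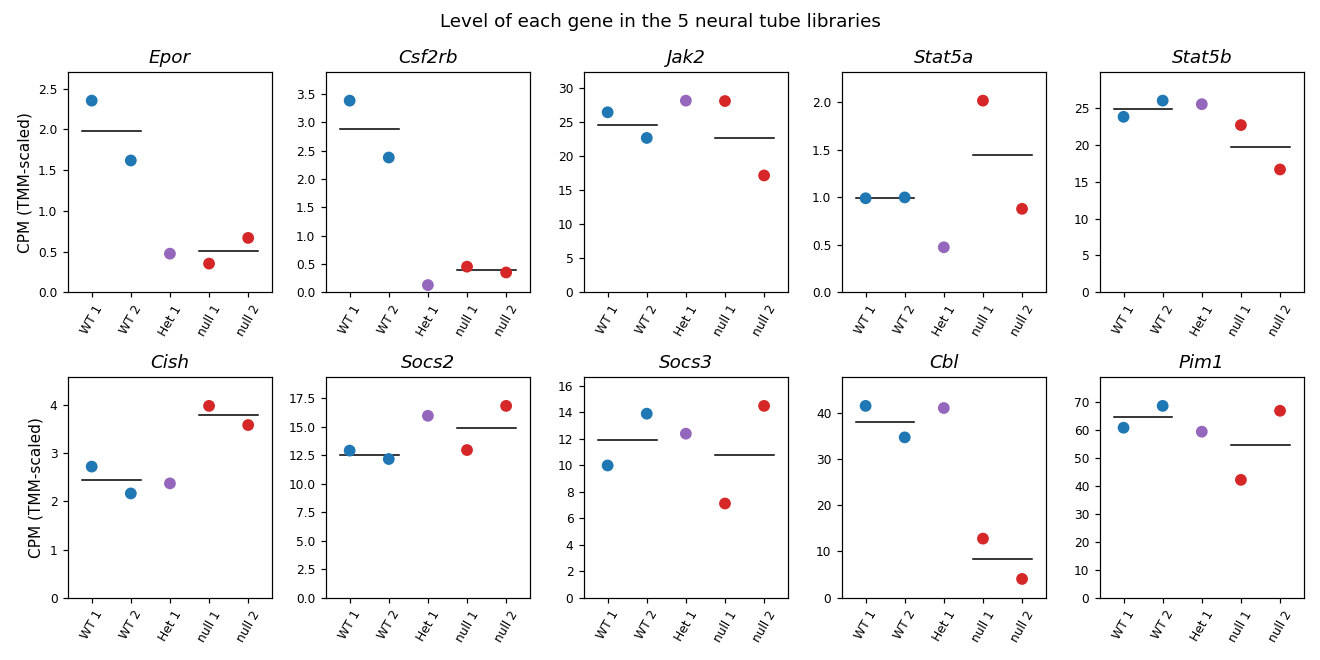
TMM-scaled CPM of the 10 genes in each library, with 1 point per library (blue wild type, purple heterozygote, red EpoR-null), black lines for the means of the 2 wild type and the 2 EpoR-null libraries, and axes that start at 0. Epor and Csf2rb are low in the heterozygote as well as in EpoR-null, Cbl is low in EpoR-null only and Cish is higher there.

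A gene was called where the exact test of edgeR gave a p-value under 0.001 and a Benjamini-Hochberg false discovery rate (FDR) under 0.05. Of 12703 tested genes 3.84% were called lower in EpoR-null and 0.929% higher. Of the 10 genes 1 was called lower, Cbl, and 0 were called higher. Cbl was not called by the quasi-likelihood F-test of edgeR, with or without a replicate block, or without wild type replicate 1. Against wild type alone, 1.89% of 12628 tested genes were called lower, and of the 10 genes these were 2, Cbl and Csf2rb. Csf2rb entered that test only through the wild type libraries, where it was high, so its call gives no support. Both EpoR-null libraries lay below every control for 2 of the 10 genes (Stat5b and Cbl), which was so for 22.1% of all tested genes. They lay above every control for 1 gene (Cish), which was so for 21.2% of all. The groups overlapped for the other 7. Since the genes were picked on this contrast, nothing is read from these counts.

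The log2 fold change was negative for 7 of the 10 genes, with a median of -0.20, and the median of all tested genes was 0.056. Epor, Csf2rb and Cbl lay below the 5th percentile of all tested genes (-0.67), and Cish and Stat5a lay above the 95th (0.64). The other 5 lay between them. Against wild type alone, Cbl stood at -2.18 (SE 0.58), Cish at 0.63 (SE 0.42) and Stat5a at 0.52 (SE 0.59), and the other 5 genes outside the receptors ran from -0.34 for Stat5b to 0.25 for Socs2.

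**Figure D4:**
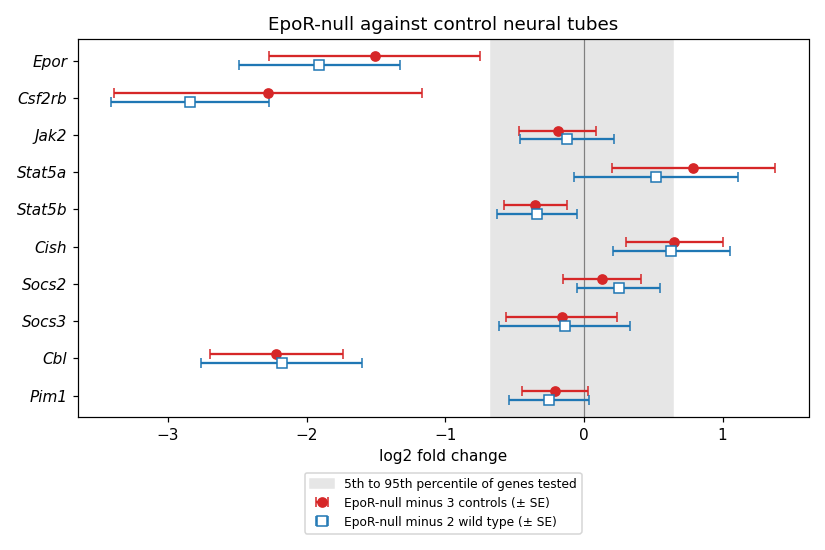
Log2 fold change of the 10 genes, EpoR-null minus the 3 controls (red circles) and minus the 2 wild type libraries (white squares), with standard errors, over a grey band from the 5th to the 95th percentile of tested genes (-0.67 to 0.64). Epor and Csf2rb have smaller errors without the heterozygote, 0.58 and 0.57 in place of 0.76 and 1.11.

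Epo, the hormone gene, was itself expressed in the neural tubes. It had 2.93 and 3.24 CPM in wild type, 2.55 in the heterozygote, and 1.97 and 3.59 in EpoR-null. The groups overlapped, with a log2 fold change of -0.06 (SE 0.43).

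The close relatives of the 10 genes gave 16 tested genes of 19 with Epo and Csf2rb2 counted in, and 0 passed both thresholds of the exact test, with a lowest FDR of 0.0227. That was Socs4, with 19.8 and 17.2 CPM in wild type, 20.4 in the heterozygote, and 11.9 and 8.48 in EpoR-null (log2 fold change -0.91, SE 0.27), and it was not past the p threshold. With the length and GC offsets the log2 fold change of Socs4 was -0.50. Jak3, a kinase of blood cell receptors, followed the low heterozygote, at 2.19 and 3.74 CPM in wild type, 0.216 in the heterozygote, and 2.72 and 1.62 in EpoR-null. Cblb, the nearest relative of Cbl, had 87.4 and 85.1 CPM in wild type, 94.3 in the heterozygote, and 82.8 and 63.2 in EpoR-null, a log2 fold change of -0.29 (SE 0.17) with FDR 0.365 in the exact test of edgeR. Cblc, the third CBL gene, had at most 2 reads in any library.

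Per kb of transcript, the wild type means ran from 23.9 CPM per kb for Pim1 to 0.251 for Stat5a. Jak2 (4.88), Stat5b (4.77) and Socs3 (4.68) followed Pim1, and their ranges over the wild type libraries overlapped. Cbl (3.35) and Socs2 (2.96) came next, with wild type ranges of 3.05 to 3.65 and 2.87 to 3.05 CPM per kb that met at their ends. Epor stood at 1.13 CPM per kb and Csf2rb at 0.588, and Csf2rb overlapped Cish (0.520). Transcript lengths are those of the longest annotated transcript, so the order depends on which transcript is made.

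**Figure D5:**
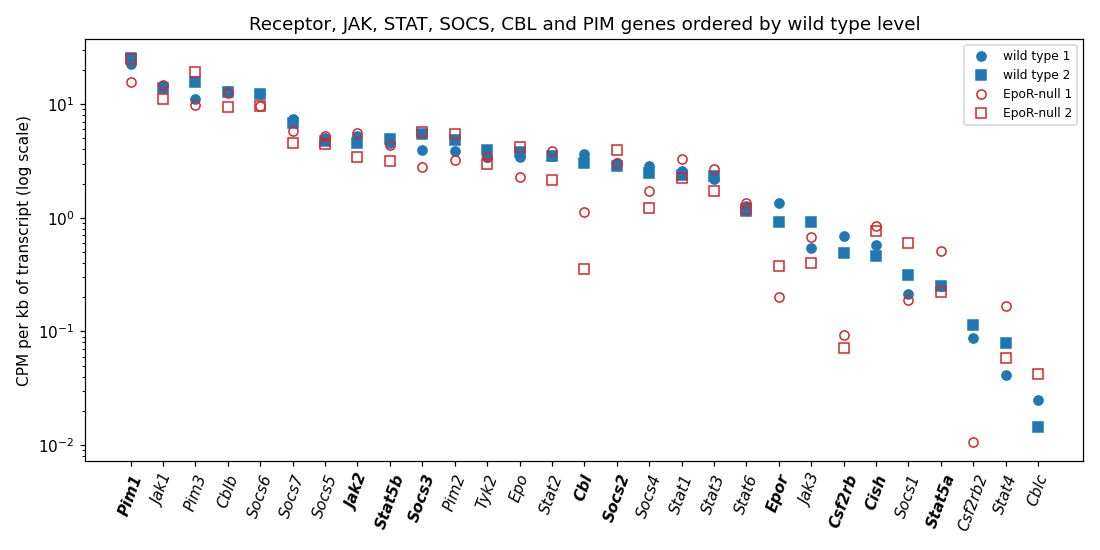
CPM per kb of transcript on a log scale for the 10 genes (bold names) and their relatives, ordered by wild type mean, with filled blue points for wild type and open red points for EpoR-null (circles replicate 1, squares replicate 2); libraries at 0 reads are not drawn. Cbl has 3.05 to 3.65 CPM per kb in wild type and 0.356 in EpoR-null replicate 2, and Pim1 is highest in wild type.

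The rest of the pathway was followed in lists of 95 genes outside the 10, of which 94 were in the tables and 81 were tested. Of these 6 were called lower (7.41%, beside 3.84% of all tested genes) and 0 higher (beside 0.929%). The median log2 fold change of the 81 was -0.02, and that of all tested genes 0.056. The lists were written with earlier results of these libraries known. The 14 tested genes known to be induced by STAT5 held 2 called genes, Tfrc and Spred2, with a list median of 0.09. Tfrc, the transferrin receptor through which cells take up iron, fell from 347, 262 and 326 CPM in controls to 155 and 166 CPM in EpoR-null (log2 fold change -0.95, SE 0.18, FDR 3.65e-05 in the exact test of edgeR). Spred2, an inhibitor of the RAS and ERK pathway, fell from 42.5, 43.9 and 38.5 CPM to 24.5 and 25.2 CPM (log2 fold change -0.74, SE 0.17, FDR 0.00112 in the same test). In both genes every control lay above both EpoR-null libraries, which was so for 22.1% of all tested genes. Both were named because the exact test called them, so this adds no support.

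Among the 26 tested adaptors and kinases below the receptor, Irs2 and Crkl were called, and the list median was -0.08. Irs2, an adaptor of insulin and cytokine receptors, fell from 34.4, 54.3 and 43.4 CPM to 13.9 and 19.4 CPM (log2 fold change -1.40, SE 0.28, FDR 0.000201 in the exact test of edgeR). Crkl, an adaptor that binds CBL, fell from 107, 113 and 109 CPM to 75.8 and 68.5 CPM (log2 fold change -0.60, SE 0.13, FDR 0.000641 in the same test). The 13 tested cytokine receptors and ligands held Il6st, the shared gp130 chain, at -0.82 (SE 0.14, FDR 3.57e-06 in the exact test of edgeR), with a list median of 0.12. The 21 tested brakes of the pathway held Ptpn11, the phosphatase SHP2, at -0.46 (SE 0.13, FDR 0.0133 in the exact test of edgeR), with a list median of -0.03. The 7 tested JAK and STAT genes held 0 called genes, and their median was 0.08.

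With the length and GC offsets in the likelihood-ratio test of edgeR, Il6st moved to -0.33 (FDR 0.392) and Ptpn11 to -0.06 (FDR 0.984), and neither was then called. Irs2 (-1.10, FDR 0.0091), Tfrc (-0.70, FDR 0.00813), Spred2 (-0.63, FDR 0.00837) and Crkl (-0.40, FDR 0.0353) stayed under the FDR threshold. Of 15 alternative fits, Irs2 was called in 14, Tfrc and Il6st in 13, Crkl and Spred2 in 12 and Ptpn11 in 8. The quasi-likelihood F-test called none of these 6. Without wild type replicate 1 Crkl, Spred2 and Ptpn11 were not called, without wild type replicate 2 Spred2 and Ptpn11 were not, and without the heterozygote Ptpn11 was not.

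The genes with profiles most like Epor over the 5 libraries were Pklr, Cobl, Hmcn1, Rhag and Gm19757, at distances of 0.834 to 1.22 between centred log2 CPM values. Pklr, the pyruvate kinase of red cells and liver, had 3.30 and 3.74 CPM in wild type, 0.777 in the heterozygote, and 0.807 and 2.04 in EpoR-null. Rhag, a red cell membrane protein gene of the erythroid list, had 2.15 and 1.02 CPM in wild type, 0.216 in the heterozygote, and 0.555 and 0.387 in EpoR-null. Gata1, the erythroid factor of the same list, was at 1.73 and 0.999 CPM in wild type and at 2.37 and 1.30 in EpoR-null, with 0.0864 in the heterozygote. Rhag was picked for its likeness to Epor and was the exception in its list, where 1 of 11 tested erythroid markers had a negative log2 fold change and the median was 0.75.

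The genes nearest to Cbl were Zfp369, Lmbrd2, Kcna3, D830031N03Rik and Zbed6, at distances of 0.367 to 0.528. Kcna3, a potassium channel gene, had 1.90 and 2.19 CPM in wild type, 2.33 in the heterozygote, and 0.555 and 0.211 in EpoR-null. Zbed6, a zinc finger gene, had 58.1 and 37.5 CPM in wild type, 55.0 in the heterozygote, and 15.6 and 3.59 in EpoR-null. All 5 had their lowest level in EpoR-null replicate 2, as Cbl did, but they were picked for their likeness to Cbl over these libraries. The transcripts of the 4 with a length in the annotation ran from 1.90 to 8.10 kb, shorter than that of Cbl.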

How the data were processed

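The deposited files hold, per the labels, raw read counts per gene, 1 table per library, which the authors made without normalization. The submitters' processing notes name FastQC, Trimmomatic 0.32, TopHat2 2.1.0, HTSeq 0.6.1, edgeR and the build mm9, whereas the study's methods give another Tophat version and a human build. The annotation and strand setting are not given in the sources used here. HTSeq leaves out reads that fit several places or genes.

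Counts were scaled by TMM and tested by the exact test of edgeR 4.0.16 (R 4.3.3), as in the study, EpoR-null against the 3 controls. Tagwise dispersions and Benjamini-Hochberg adjustment were set here. A gene was tested where 2 or more libraries exceeded 1 CPM. Standard errors came from the fitted negative binomial model. DESeq2 1.42.0 was an alternative. Log2 CPM values used a prior count of 2. Positions and lengths (GENCODE) and promoters (RefSeq) were matched by symbol to GRCm38, which 90.73% of tested genes had, and no coordinate was converted. Replicates are separate samples by the labels. P-values of the fit against the 3 controls rest on the spread within groups, and the control group mixes wild type with the heterozygote. That spread therefore includes any difference between these genotypes, and it may be partly technical.

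Named genes were the 10 genes, Epo and close relatives, pathway genes past both thresholds, the 5 profiles nearest to Epor and to Cbl, and leading markers. The 10 genes and all lists were chosen with earlier results of these data known. Groups and replicate numbers came from the sample titles and genotype labels.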

Additional observations from a re-analysis of the deposited data

How the results depend on the processing

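Of the 156 log2 fold changes of the 10 genes under the alternatives, 147 moved by less than the spread within groups and 9 by more. This spread was the SD of log2 CPM within the controls and within EpoR-null, with the heterozygote counted among the controls. It was 0.97 for Epor and 1.83 for Csf2rb, so for these genes even large shifts counted as small. Jak2, Socs2, Socs3 and Pim1 changed sign in at least 1 alternative, and the other 6 genes in none. The fold change of Epor ran from -2.06 to -1.15, that of Csf2rb from -2.84 to -1.34, and that of Cbl from -3.27 to -1.61. Cbl was called in 12 of 15 tested settings, and not by the quasi-likelihood F-test, with or without the block, or without wild type replicate 1. Csf2rb was called without the heterozygote, but it was tested there only through the wild type libraries, where it was high. The fold change of Pim1 was -0.58 without EpoR-null replicate 2. Epor and Csf2rb could not be fitted without either wild type replicate, since they then failed the filter.

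The quasi-likelihood F-test called 0 of the 10 genes, 0 pathway genes and 0 genes in all, in place of 1, 6 and 606. Its lowest FDR was 0.059, with 3052 genes at an unadjusted p under 0.05 beside 2515 by the exact test. When a replicate block was added to it, the test called 0, 3 and 291. The labels give the same-numbered libraries only a shared number, and what else they may share is not stated. The differences of replicates 1 and 2 correlated across genes at r = 0.427 (Spearman rho 0.529) between the genotypes, from 2 pairs. Whether a batch goes with the replicate number was not tested. DESeq2 called 1028 genes, and the likelihood-ratio test with length and GC offsets 235 in place of 582 without them. With the heterozygote as its own group 246 genes and 2 of the 10 were called. Leaving out 1 library at a time gave 115 genes (without wild type replicate 1) to 2296 genes (without EpoR-null replicate 1), 0 to 2 of the 10, and 3 to 16 pathway genes. The cause of these shifts was not tested. The depth limits Epor, Csf2rb and Stat5a most, with 3 to 100 reads per library.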
